A study of Mus musculus with 12 samples.

Results

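The nuclear-encoded genes of oxidative phosphorylation were followed in the cerebellum of a mouse model of spinocerebellar ataxia type 1. Members were the protein-coding genes whose mouse symbol is that of a subunit of complex I (Nduf), complex II (Sdha to Sdhd), complex III (Uqcr), complex IV (Cox4 to Cox8) or complex V (Atp5), with at least 10 reads in 4 or more of the 12 libraries. Of 55401 gene identifiers in the tables, 97 carried such a symbol and 85 of these were protein-coding. The read minimum left 81 members, 37 of complex I, 4 of complex II, 8 of complex III, 15 of complex IV and 17 of complex V. The 12 matches that are not protein-coding were processed pseudogenes or, for Ndufb1-ps, a non-coding RNA. Among the 4 protein-coding matches under the minimum, Cox6a2 had at most 18 reads in a library, Cox8b at most 9 and Cox8c at most 1. The last of them, a second identifier named Atp5o, had none. Just inside the minimum, Cox7b2 had 0 to 23 reads per library, and the next lowest member, Cox4i2, had 15 to 70. Ndufa4 was counted with complex I by its symbol, although the protein is known as a subunit of complex IV. Cox7a2l, a factor that joins complexes III and IV into supercomplexes, and Atp5s, a coupling factor, were also kept by symbol.

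Oxidative phosphorylation makes most of the ATP of neurons. Complex I (NADH dehydrogenase) and complex II (succinate dehydrogenase) pass electrons to ubiquinone, complex III passes them on to cytochrome c, and complex IV hands them to oxygen. Complexes I, III and IV pump protons across the inner mitochondrial membrane, and complex V, the ATP synthase, uses the return flow to make ATP. Except for complex II, each complex combines nuclear-encoded subunits, which are imported, with a few subunits encoded by mitochondrial DNA. Purkinje cells, the output neurons of the cerebellar cortex, fire continuously and depend heavily on this supply.

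The 12 mice formed 3 groups of 4, each mouse giving 1 library. WT DMSO mice were wild type and received the solvent dimethyl sulfoxide (DMSO). Het DMSO mice were heterozygous knock-ins, Atxn1 154Q/2Q, with a long run of CAG codons for glutamine in a single copy of Atxn1, and they received DMSO alone. Het Hit 2 mice had the same genotype and received the compound Hit 2, dissolved at 25 mg/ml in DMSO. All groups shared the solvent (under 4 ml/kg), the intraperitoneal route, the start at 18 weeks of age, the schedule of 5 daily injections, 2 days of rest and 5 more, and the saline perfusion at 20 weeks. By its title, the series tests whether repeat-selective compounds lower the abundance of CAG-expanded transcripts. Libraries are named here by animal number: 413, 425, 426 and 431 for WT DMSO, 409, 411, 420 and 429 for Het DMSO, and 410, 421, 422 and 430 for Het Hit 2.

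Depth was 15855751 to 45265719 reads assigned to genes per library, of which the 81 members took 0.513% to 0.769%. Reads of Atxn1 itself do not separate the alleles, and its level in CPM, read counts scaled to library size, was 142 to 174 in WT DMSO, 157 to 186 in Het DMSO and 137 to 181 in Het Hit 2. Libraries 409 and 411, both Het DMSO, stood apart. In 409, genes of the mitochondrial chromosome took 0.0795% of gene reads, against 1.85% to 2.81% in the other libraries, and the share of multimapping reads was the highest, at 7.01%. In 411 the 12 Purkinje cell markers summed to 626 CPM, against 7946 to 8307 in the WT DMSO libraries, and the 12 granule cell markers summed to 419 CPM, against 7323 to 8265. Its 10 oligodendrocyte markers summed to 6683 CPM, against 1790 to 3420. Its 7 midbrain dopamine neuron markers summed to 136 CPM, against 14.2 to 64.3 in the other 11 libraries. Library 410 of Het Hit 2 lay part of the way, with 3439 CPM for Purkinje, 4951 for granule and 5548 for oligodendrocyte markers. No marker of these lists was at 0 in all libraries. Library 411 thus had little marker RNA of the 2 main neuron types of the labelled tissue. Members' log2 fold changes for Het DMSO against WT DMSO are given below with all libraries and without both. In whole tissue, fewer cells of a type and less RNA per cell cannot be told apart.

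Promoter sequences of 4 members are shown. Atp5g3 and Atp5e had Het DMSO and WT DMSO levels that did not overlap. Ndufb6 had the highest deviation of all members in library 411, and Atp5l was low in both 409 and 411. Of 66 members with a promoter, 37 had no match to the 4 motifs searched below. The 4 sequences shown were picked from windows with a match and few exonic bases, so their matches follow from the choice. They do not link the motifs to the members that the results below turn on. Each sequence is the 250 bases before the RefSeq transcription start on GRCm38.p6, 5′ to 3′ on the gene's own strand, with matches to the searched letters of 4 motifs in capitals.
Atp5g3, chr2:73911327-73911576, minus strand: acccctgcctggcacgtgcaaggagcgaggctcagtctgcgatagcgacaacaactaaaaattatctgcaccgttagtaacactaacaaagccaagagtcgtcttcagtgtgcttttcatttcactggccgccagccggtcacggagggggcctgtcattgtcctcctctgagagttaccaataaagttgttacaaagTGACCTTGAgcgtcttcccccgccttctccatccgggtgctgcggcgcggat
Atp5e, chr2:174464102-174464351, minus strand: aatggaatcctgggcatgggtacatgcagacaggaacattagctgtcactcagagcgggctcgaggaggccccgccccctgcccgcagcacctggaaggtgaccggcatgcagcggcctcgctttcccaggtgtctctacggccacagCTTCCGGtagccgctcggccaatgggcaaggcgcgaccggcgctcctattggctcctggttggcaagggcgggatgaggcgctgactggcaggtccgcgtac
Ndufb6, chr4:40279422-40279671, minus strand: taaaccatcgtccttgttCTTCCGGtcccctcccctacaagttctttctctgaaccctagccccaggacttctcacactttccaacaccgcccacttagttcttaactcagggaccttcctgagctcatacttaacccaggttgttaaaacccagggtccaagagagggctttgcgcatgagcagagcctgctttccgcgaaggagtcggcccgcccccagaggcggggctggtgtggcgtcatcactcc
Atp5l, chr9:44920743-44920992, minus strand: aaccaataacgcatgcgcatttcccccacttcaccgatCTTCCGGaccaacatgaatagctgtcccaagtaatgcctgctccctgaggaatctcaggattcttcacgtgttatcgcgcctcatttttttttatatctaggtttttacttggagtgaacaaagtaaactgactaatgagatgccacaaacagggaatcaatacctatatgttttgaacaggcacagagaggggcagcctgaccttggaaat
The capitals in Atp5g3 are the reverse complement of TCAAGGTCA, the letters searched for estrogen-related receptors (ERR), and begin at position -52. The capitals in the other promoters are the reverse complement of CCGGAAG, the letters searched for ETS factors such as GABP, and begin at -102 in Atp5e, -232 in Ndufb6 and -212 in Atp5l.

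RefSeq promoters of 300 bases, 250 before and 50 after the start, were found for 66 of the 81 members and searched on both strands. The letters CCGGAAG were present in 16 of the 66 (24.2%), against 9.93% of 27025 genes with a promoter. AAGATGGC, searched for YY1, was present in 10 members (15.2%, against 3.19%), among them Ndufb8, Ndufs7 and Ndufa9. The palindromic NRF1 motif was present in 5 (7.58%, against 1.07%), namely Atp5g2, Atp5k, Cox6a1, Ndufa11 and Uqcrc1. TCAAGGTCA was present in Atp5g3 and Sdhd (3.03%, against 0.466%), CCAAT in 29 members (43.9%, against 41.1%) and TATAAA in 6 (9.09%, against 15.7%). None of the searched letter strings contains another, although CCGGAAG and AAGATGGC can share their AAG. At least 1 of the NRF1, ETS, YY1 and ERR motifs was present in 29 members, and these letters were not found in the windows of the other 37. Forms of the letters were settled after longer and shorter ones had been viewed, and a match is only a description of the sequence. Members with and without the ETS letters had median log2 fold changes of 0.12 and 0.17 for Het DMSO against WT DMSO. These medians were 0.08 and 0.16 for NRF1, 0.18 and 0.15 for YY1, and 0.20 and 0.15 for ERR, so the motifs differed in direction.

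Levels per length differed widely within each complex. CPM per kilobase of exon (RPKM) were averaged over the 12 libraries. In complex I the range ran from 1.58 for Ndufa4l2, a paralog of Ndufa4 known to respond to low oxygen, to 119 for Ndufa4, with a median of 39.7. Sdha, the flavoprotein of complex II that oxidises succinate, had 114 RPKM, whereas Sdhc, a membrane anchor, had 20.3. In complex III, Uqcrh, the hinge protein, had 124 and Uqcrq 23.0. Complex IV spanned the widest range, from 0.53 for Cox7b2, a testis form, to 322 for Cox4i1, the general form of subunit 4. Atp5b, the catalytic beta subunit of ATP synthase, had 426 RPKM, the highest of all members, and Atp5a1, the alpha subunit, had 206. Atp5s was the lowest of complex V, with 3.92. These orders depended in part on the exon models. With exons of all annotated transcripts, an alternative chosen after seeing the data, Ndufa4 at 53.8 RPKM was no longer the highest of complex I, and the highest member became Uqcr10 in complex III and Cox8a in complex IV, while Sdha and Atp5b stayed the highest of complexes II and V. Atp5b and Atp5a1 then had nearly equal levels, 193 and 191. Median exonic length was 934 bases over the members and 2836 over all genes with the same read minimum, so the members are short genes.

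**Figure D1:**
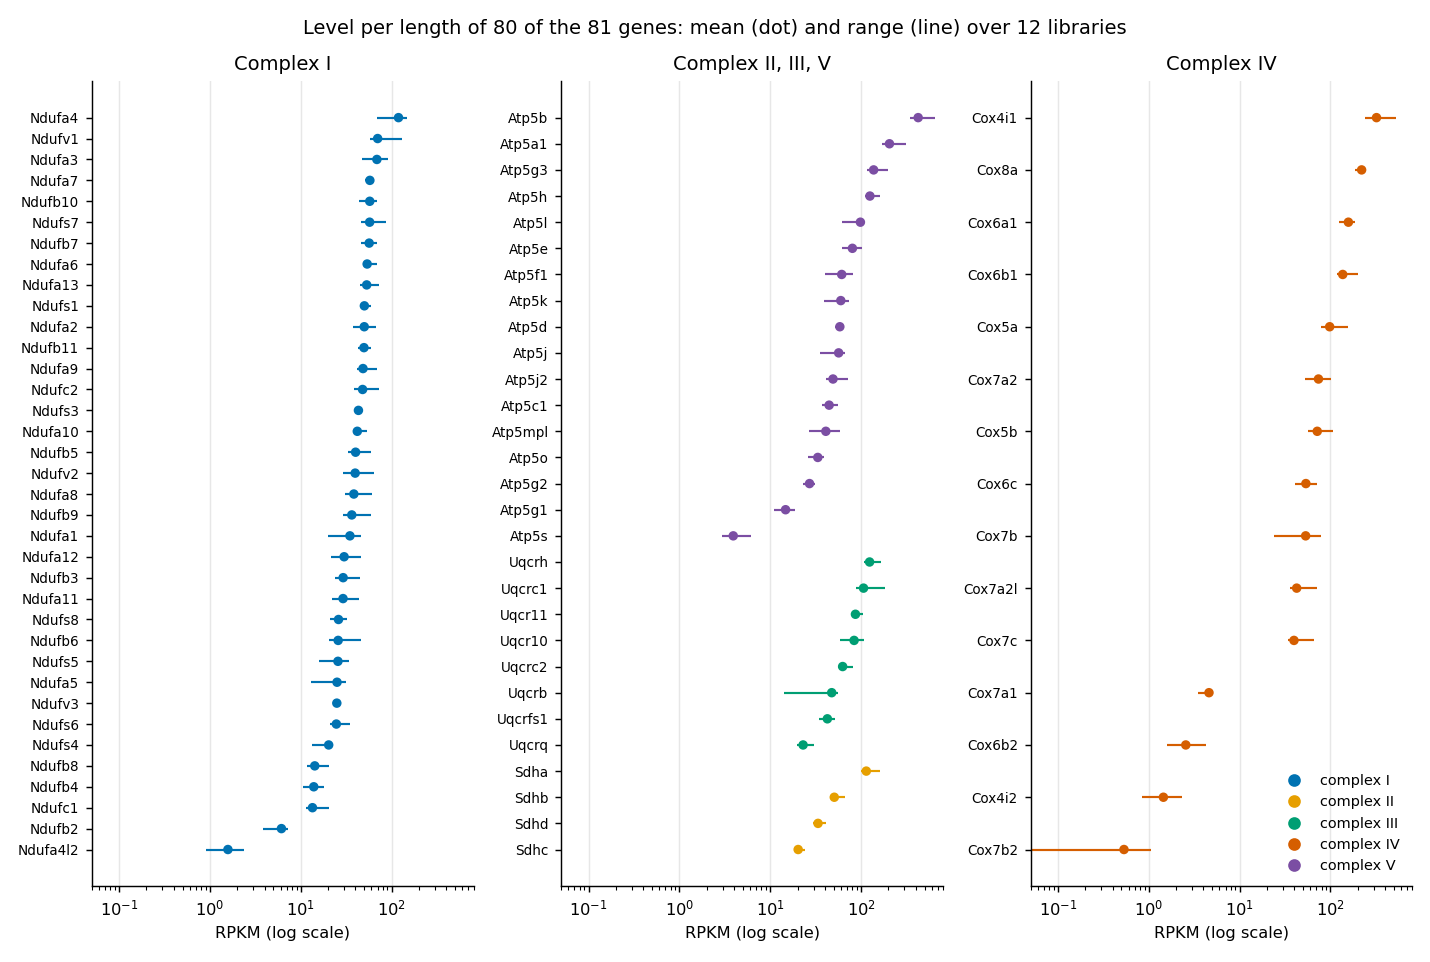
Mean level per length (dots, RPKM, log scale) of 80 of the 81 genes over 12 libraries, with the lowest and highest library as the ends of each line, coloured by complex. Atp5b is highest at 426 RPKM, and Ndufb2, Cox7a1, Atp5s, Cox6b2, Ndufa4l2, Cox4i2 and Cox7b2 lie below the rest. The line of Cox7b2 reaches 0 and is drawn to the edge of the panel.

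Of the subunits with tissue forms, the general form made up nearly all of the level for subunits 4, 6a, 6b, 7b and 8, but not for 7a. Shares are given per length as the lowest and highest library. Cox4i1 took 99.2% to 99.7% over Cox4i2, the form known from lung. Cox6b1 took 97.2% to 98.8% over Cox6b2, a testis form, and Cox7b took 95.8% to 100% over Cox7b2. The muscle form Cox7a1 took 2.08% to 4.90% of the Cox7a family, the liver form Cox7a2 took 53.7% to 64.4%, and Cox7a2l took 31.7% to 41.4%. The highest shares of Cox7a2l were in 409 (41.4%), 411 (39.9%) and 410 (38.8%), and the other 9 libraries lay at 31.7% to 35.2%. Reads of Cox6a2, Cox8b and Cox8c, forms of striated muscle and testis, were under the read minimum.

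The 3 genes Atp5g1, Atp5g2 and Atp5g3 encode the same mature c subunit of the ATP synthase rotor ring with different import sequences. Per length, Atp5g3 took 73.5% to 80.9% over the 12 libraries, Atp5g2 11.5% to 18.2% and Atp5g1 7.02% to 10.1%. With exons of all transcripts the medians were 62.6%, 16.9% and 20.0%, so the order of the 2 lesser genes is not fixed by these data. The share of Atp5g2 was 16.0%, 17.4%, 16.6% and 18.2% in the WT DMSO libraries 413, 425, 426 and 431. In the Het DMSO libraries 409, 411, 420 and 429 it was 12.6%, 11.5%, 15.7% and 14.1%, and the groups did not overlap. In Het Hit 2 it was 14.8%, 15.6%, 13.3% and 17.7% in 410, 421, 422 and 430. The mean share was 13.5% ± 1.80 (SD, n = 4) in Het DMSO and 17.0% ± 0.939 (SD, n = 4) in WT DMSO, with an exact two-sided permutation p of 0.0286, the smallest that 4 against 4 can give. Over 30 such tests of alternative genes, chosen after the values had been seen, the adjusted p was 0.429. The groups also did not overlap with exons of all transcripts or as shares of reads, with an adjusted permutation p of 0.857 on each of these scales. Leaving out 409 and 411 could not have produced an overlap, so it adds no check. Atp5g3 shares were 74.2% to 76.0% in WT DMSO and 76.6% to 80.9% in Het DMSO, without overlap, but overlapped with exons of all transcripts.

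Within the libraries, the members moved in 2 distinct ways. The deviation of a member in a library is its log2(CPM + 0.5) minus its median over the 12 libraries. In library 411 the members lay above their medians together, with a median deviation of 0.40, 75 of 81 above 0 and 24 above 0.5. Ndufb6, an accessory subunit of complex I, was highest there at 0.89, followed by Cox7a2l at 0.83 and Cox7c at 0.81. Ndufb2 (-0.51), Cox7a1 (-0.32) and Atp5l (-0.17) were lowest. The shift was present in each complex, with medians of 0.40 for complex I, 0.39 for II, 0.40 for III, 0.56 for IV and 0.33 for V. Members were picked out of these extremes after their values were seen.

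Library 409 showed no common shift but a wide spread. Its median deviation was 0.00, with 11 members above 0.5 and 15 below -0.5, and the SD over members was 0.49, against 0.27 in 411 and 0.08 to 0.14 in the other 10 libraries. Over all genes the SD was 0.80 in 409, 0.97 in 411 and 0.21 to 0.50 in the others. Members spread less than genes at large in all 12 libraries, so this is no trait of 409 or 411. The SD over all genes includes scarcer genes, whereas 75 of the 81 members had a mean of at least 10 CPM. The highest members in 409 were Ndufv1 at 1.05, Uqcrc1 at 0.90, Cox4i1 at 0.84, Atp5b at 0.72, and Ndufc2 and Atp5a1 at 0.69. The lowest were Uqcrb at -1.79, Cox7b at -1.15, Ndufa5 at -0.95, Ndufa1 at -0.83 and Ndufa4 at -0.79. Uqcrb, which helps form a quinone site of complex III, had 7.61 CPM in 409 and 23.6 to 29.8 CPM in the other 11 libraries. A list of 17 subunits, made of core and cofactor-bearing subunits of complex I, all of complex II, the core and Rieske proteins of complex III and the alpha, beta and gamma subunits of F1, had a median of 0.33 in 409, with 14 of 17 above 0, and the other 64 members a median of -0.08, with 27 above 0. These 17 genes are longer, with a median exonic length of 1774 bases against 776.5. Members at or below the median length had a median deviation of -0.09 in 409, and the longer ones 0.06. The part of gene length, of the low mitochondrial share and of the multimapping reads in the pattern of 409 was not tested. Nor was the part of cell content in that of 411, where the marker sums moved with it. The other 10 libraries had medians between -0.14 (431) and 0.12 (410).

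**Figure D2:**
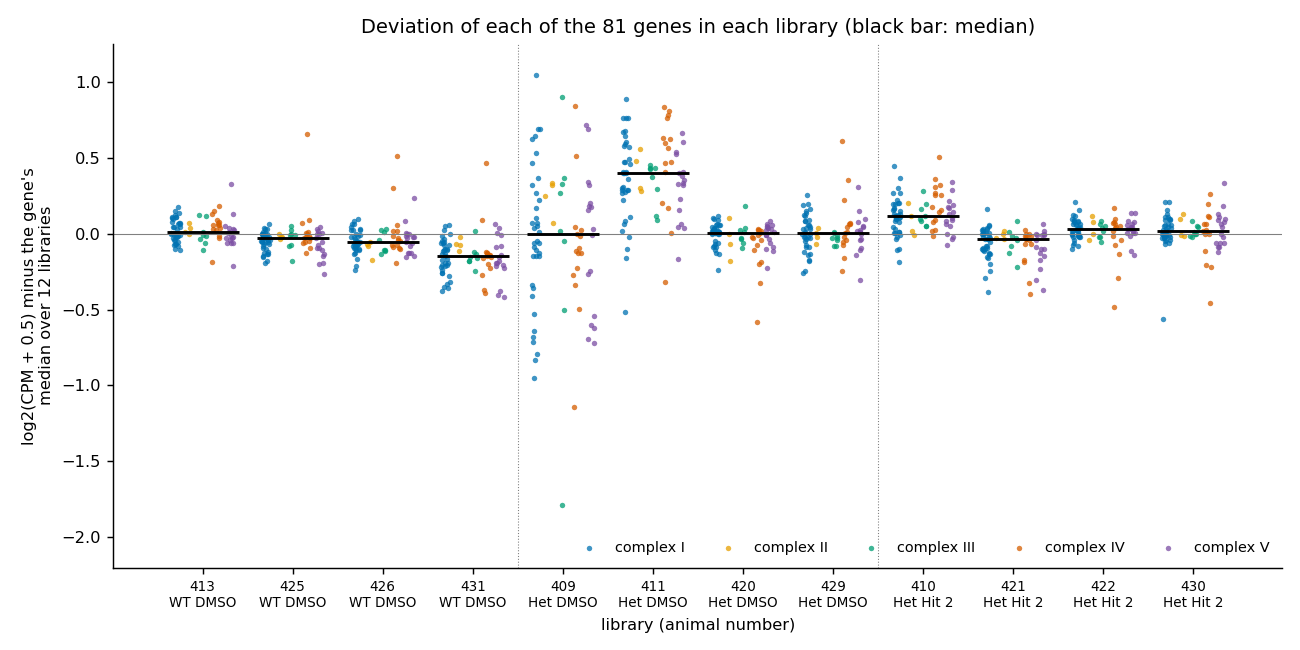
Deviation of each member in each library, as log2(CPM + 0.5) minus the member's median over the 12 libraries, coloured by complex, with the library's median as a black bar. Library 411 is shifted up in all 5 complexes, library 409 is spread from -1.79 (Uqcrb) to 1.05 (Ndufv1) around a median of 0.00, and the other libraries stay close to 0.

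The comparison of Het DMSO with WT DMSO addresses the knock-in allele. Libraries 425 and 426 of WT DMSO had Xist at the level of females and no Het library did, so genotype is partly tied to sex here. No member was called by edgeR's quasi-likelihood test at a Benjamini-Hochberg adjusted p of 0.05, and 0.00516% of the 19378 genes tested were. All 81 members were among the genes tested. At an unadjusted p under 0.05, 19 of 81 members (23.5%) passed, all higher in Het DMSO, against 7.11% of all genes, of which 4.77% were higher and 2.34% lower. DESeq2 and limma with a quality weight per library also called none. They had 20 and 8 members at an unadjusted p under 0.05, and edgeR with a term for female libraries had 5. Over the alternative fits, leaving out single libraries aside, 567 to 1862 of all genes passed, so the share of 7.11% is not the background of these counts. The median log2 fold change was 0.16 over the members and 0.05 over all genes, and 64 of 81 members (79.0%) lay above 0, against 55.8% of all genes. By complex the medians were 0.16 for I, 0.23 for II, 0.14 for III, 0.16 for IV and 0.17 for V, so the complexes lay close together.

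The size of this upward lean and the count of members at a small p rested on few libraries. Without 409 and 411, 2 members (Ndufc2 and Cox6c) passed an unadjusted p of 0.05, both higher, against 5.83% of all genes and 2.07% in that direction. The median was 0.04. Of the 81 members, 55 (67.9%) still lay above 0, against 48.6% of all genes. The medians by complex were then 0.05, 0.00081, 0.03, 0.01 and 0.09 for I to V. Leaving out 411 alone gave 9 members, a median of 0.04 and a complex IV median of -0.01, and leaving out 409 alone gave 17 and 0.20. WT DMSO libraries also counted, since 431, the library with the lowest median deviation, left 2 when it was removed, and 425 and 426 left 9 and 8. Over the fits that left out 1 library, 607 to 2865 of all genes passed, so these member counts have no fixed background. Marker lists moved with the comparison too, with a median of -0.74 for Purkinje cells (-0.56 without 409 and 411), -0.35 for granule cells (-0.05), -0.19 for astroglia (-0.18) and 0.78 for oligodendrocytes (-0.0015), and their part in the members' values was not tested. The 10 astroglia markers summed to 3577 to 4003 CPM in WT DMSO and 2575 to 3084 in Het DMSO, without overlap. In 8 members the groups did not overlap, all higher in Het DMSO (9.88% of 81, against 4.39% of all genes, 1.94% higher and 2.45% lower): Ndufc2, Ndufb9, Ndufv1, Atp5a1, Sdhc, Atp5g3, Ndufa2 and Atp5e.

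Ndufc2, an accessory subunit of the membrane arm of complex I (chromosome 7, 97400003 to 97407802 on GRCm38, plus strand), had the smallest p of the members. It had 32.4, 31.3, 31.4 and 29.4 CPM in WT DMSO and 54.6, 46.7, 35.97 and 37.4 CPM in Het DMSO (409, 411, 420 and 429). The 4 Het DMSO libraries all lay above the 4 WT DMSO libraries, 409 and 411 most. The log2 fold change was 0.49 (SE 0.13, 95% interval 0.23 to 0.75), with an unadjusted p of 0.00315, an adjusted p of 0.616 by edgeR and an exact permutation p of 0.0286. Without 409 and 411 it was 0.23 (SE 0.07), with an adjusted p of 0.488. Ndufb9, also of the membrane arm, had 20.4 to 23.2 CPM in WT DMSO and 27.2, 41.3, 24.5 and 27.1 in Het DMSO, so that 411 was the farthest. Its log2 fold change was 0.45 (SE 0.16), and 0.22 (SE 0.10) without 409 and 411.

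Of the core subunits of complex I, which carry the path of electrons, Ndufv1 differed most. Ndufv1 binds NADH and the flavin. It had 109, 108, 105 and 103 CPM in WT DMSO and 230, 154, 116 and 111 CPM in Het DMSO. The spread within Het DMSO (SD 55.1) exceeded the difference of the means (153 and 106), and 409 was the highest of all libraries. The log2 fold change was 0.52 (SE 0.20, adjusted p = 0.616) and 0.08 (SE 0.06) without 409 and 411. Ndufs1, Ndufs3, Ndufs8 and Ndufv2 had log2 fold changes of 0.16, 0.12, 0.11 and 0.18, each with a 95% interval that included 0. Without 409 and 411 they were 0.13, 0.12, -0.06 and 0.01, so the sign of Ndufs8 turned. Ndufv2, an iron-sulfur subunit next to Ndufv1, went the other way in 409, with 52.8 CPM against 62.5 to 82.9 in the 10 libraries other than 409 and 411, and had 114 CPM in 411. The lowest fold change of the complex, and of all members, was that of Ndufb2, -0.32 (SE 0.16, unadjusted p = 0.0693 by edgeR), with 16.9 CPM in 409, 19.5 in 411 and 26.1 to 31.4 elsewhere. Without 409 and 411 it was -0.05 (SE 0.08), and Cox4i2 was lowest at -0.51 (SE 0.40).

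All 4 subunits of complex II had a fold change above 0. Sdhc, an anchor that holds the haem with Sdhd, had 62.3, 60.4, 58.5 and 58.7 CPM in WT DMSO and 77.5, 75.4, 66.5 and 63.6 CPM in Het DMSO. The groups did not overlap, and the margin between the nearest libraries was small. The log2 fold change was 0.24 (SE 0.10, adjusted p = 0.616), and 0.11 (SE 0.06) without 409 and 411. Sdha had 290 to 314 CPM in WT DMSO and 373, 464, 315 and 309 in Het DMSO. Sdhb, the iron-sulfur subunit, had 52.2 to 57.4 CPM in WT DMSO and 69.2, 76.6, 52.2 and 54.9 in Het DMSO. In both, 420 and 429 lay within or next to the WT DMSO range, and only 409 and 411 lay far above it. Without those libraries the log2 fold changes were 0.03 for Sdha, -0.03 for Sdhb and -0.09 for Sdhd.

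In complex III the 2 core proteins and the Rieske protein were the members at an unadjusted p under 0.05. Uqcrc1, a core protein, had 159, 153, 149 and 144 CPM in WT DMSO and 300, 216, 157 and 159 CPM in Het DMSO. Libraries 420 and 429 lay at the top of the WT DMSO range, and 409 and 411 lay far above it. Its log2 fold change was 0.46 (SE 0.18) and 0.05 (SE 0.06) without those libraries. Uqcrc2 had 0.29 (SE 0.13) and 0.04 (SE 0.07). Uqcrfs1, the Rieske iron-sulfur protein, had 47.2 to 56.4 CPM in WT DMSO and 70.4, 68.8, 63.7 and 54.9 in Het DMSO. Its log2 fold change was 0.29 (SE 0.11) and 0.15 (SE 0.09) without 409 and 411. Uqcrb had -0.16 (95% interval -0.78 to 0.46), and its level in 409 lay far below the rest. The sign turned without 409 and 411, with 0.09 (SE 0.09).

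In complex IV only Cox4i1 passed an unadjusted p of 0.05. It had 220, 215, 208 and 184 CPM in WT DMSO and 400, 338, 216 and 230 CPM in Het DMSO. The values of 409 and 411 were above all other libraries, and that of 420 lay inside the WT DMSO range. The log2 fold change was 0.52 (SE 0.19, adjusted p = 0.616) and 0.10 (SE 0.10) without 409 and 411. Cox7b, which is X-linked, had 23.8 CPM in 409 and 78.8 CPM in 411, while the other 10 libraries had 47.1 to 65.9, so that its group means were 52.5 ± 22.5 (SD, n = 4) in Het DMSO and 52.3 ± 4.86 in WT DMSO. Near-equal means here covered the widest split between 409 and 411 in the complex on the log2 scale, with deviations of -1.15 and 0.56. Cox8a, which has 104 CPM in 409 and 137 in 411, had a log2 fold change of -0.03 (95% interval -0.24 to 0.18), and -0.07 (SE 0.07) without 409 and 411. Equality of the groups is not shown by an interval of this width.

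In complex V the 2 large F1 subunits had the highest fold changes. Atp5a1 had 541, 523, 516 and 498 CPM in WT DMSO and 908, 734, 568 and 551 CPM in Het DMSO, without overlap. The log2 fold change was 0.41 (SE 0.16, adjusted p = 0.616) and 0.10 (SE 0.06) without 409 and 411. Atp5b had 662 to 765 CPM in WT DMSO and 1254, 962, 794 and 741 in Het DMSO, for a log2 fold change of 0.40 (SE 0.16), and 0.10 (SE 0.08) without 409 and 411. Atp5c1, the gamma subunit that turns inside them, had 74.9 to 76.5 CPM in WT DMSO and 67.0, 100, 82.5 and 80.1 in Het DMSO. It thus departed from Atp5a1 and Atp5b in library 409, where it was the lowest of all libraries. Atp5g3 had 96.9, 86.2, 88.9 and 84.1 CPM in WT DMSO and 101, 143, 101 and 100 in Het DMSO, without overlap, for a log2 fold change of 0.32 (SE 0.13) and 0.17 (SE 0.08) without 409 and 411. Atp5g2, encoding the same mature protein, had -0.09 (SE 0.12), and -0.07 (SE 0.10) without them. Atp5l, the g subunit of the membrane part, had the lowest value of the complex, -0.28 (SE 0.14, unadjusted p = 0.0658 by edgeR). It had 55.1 to 60.5 CPM in WT DMSO and 33.3, 49.3, 51.2 and 55.2 in Het DMSO. Without 409 and 411 it was -0.12 (SE 0.07), and Atp5s was lower at -0.25 (SE 0.22).

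**Figure D3:**
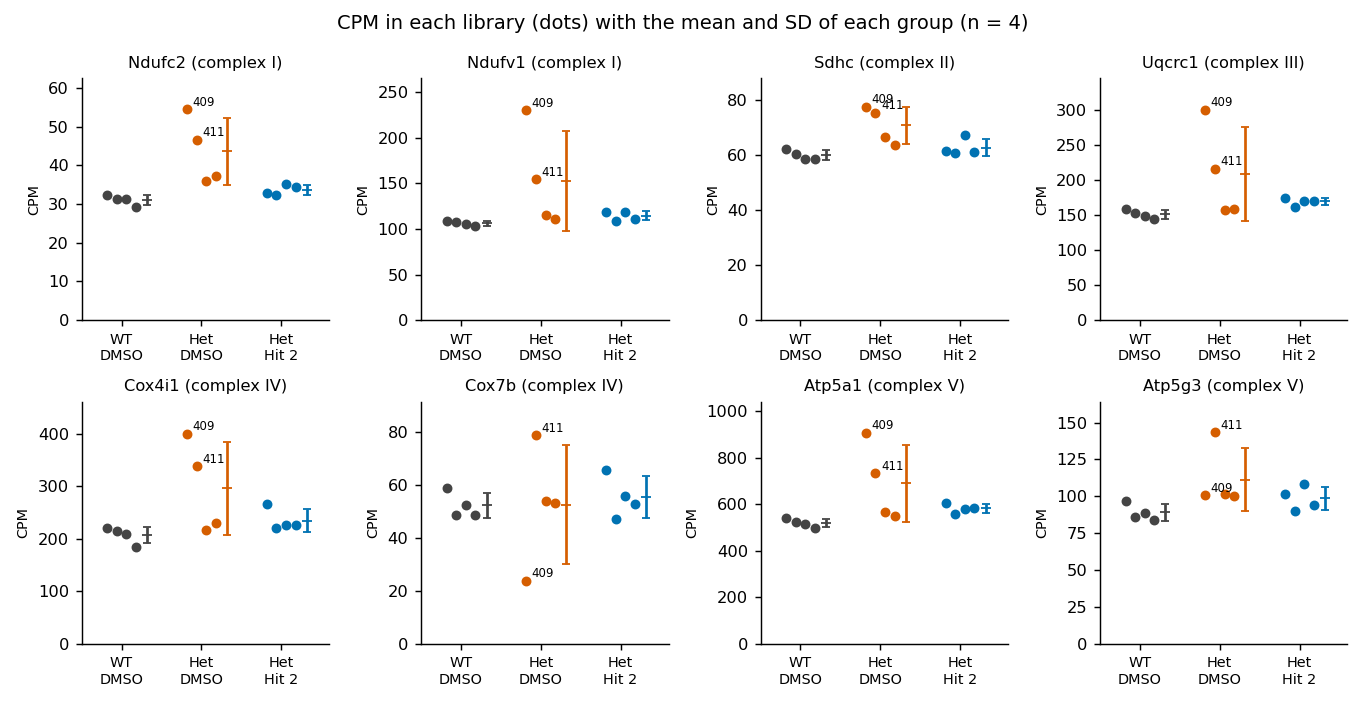
CPM of 8 members in each library (dots), with the group mean and SD (n = 4) beside them and libraries 409 and 411 labelled. In 6 of the 8 members both 409 and 411 lie above every other library, Cox7b is lowest in 409 and highest in 411, and Atp5g3 stands out in 411 only.

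**Figure D4:**
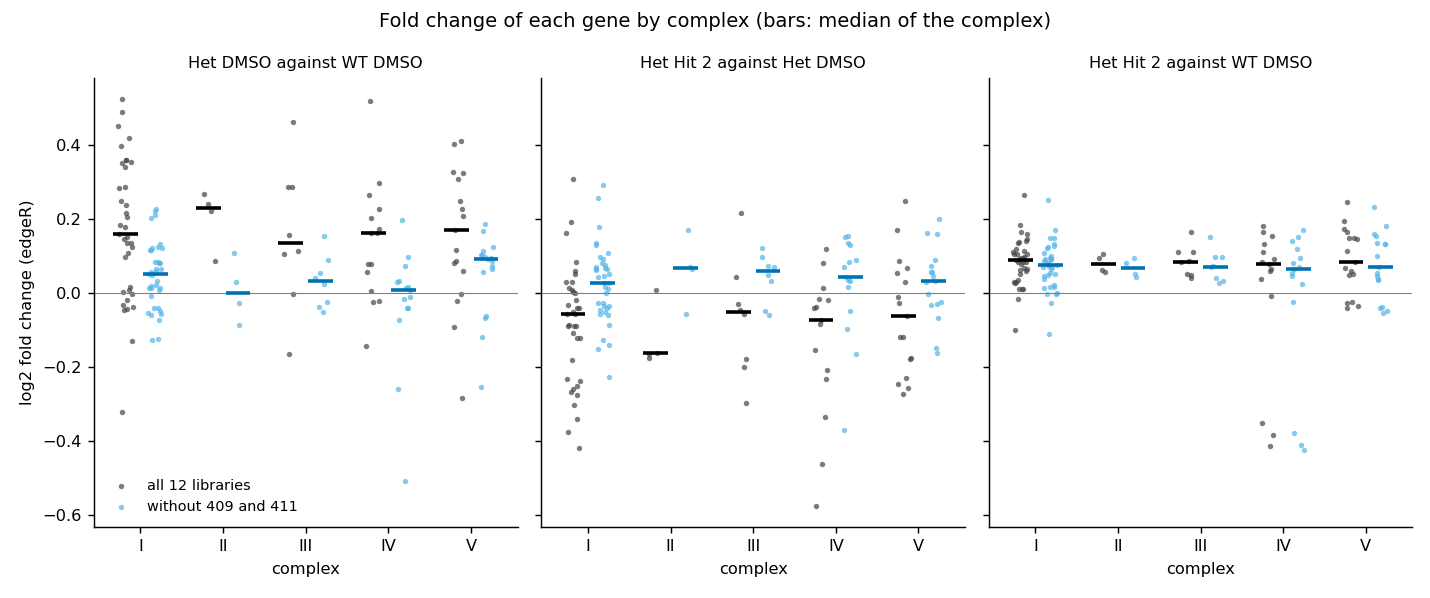
Log2 fold change of each member by complex in the 3 comparisons, with all 12 libraries (dark) and without 409 and 411 (blue), and the median of each complex as a bar. For Het DMSO against WT DMSO the medians go from between 0.14 and 0.23 to between 0.00 and 0.09 without the 2 libraries, and for Het Hit 2 against Het DMSO they go from below 0 to above 0.

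The comparison of Het Hit 2 with Het DMSO addresses the compound. No member was called by edgeR, and none of the 19378 genes was (0%). At an unadjusted p under 0.05, 2 members passed, Ndufc2 and Ndufb8, both lower in Het Hit 2 (2.47%, against 1.55% of all genes and 0.8% in the lower direction). DESeq2 had 5 such members and limma 4, while 87 to 976 of all genes passed over the alternative fits, leaving out single libraries aside. The median log2 fold change was -0.06 over the members and -0.04 over all genes, and 24 of 81 members lay above 0 (29.6%, against 44.3%). The medians by complex were -0.06 for I, -0.16 for II, -0.05 for III, -0.07 for IV and -0.06 for V. Without 409 and 411, 2 other members passed, Ndufa5 lower and Ndufa11 higher, against 3.72% of all genes (2.1% higher). The direction turned, with a median of 0.04, 53 of 81 above 0 (65.4%, against 52.3% of all genes) and complex medians of 0.03 to 0.07. Leaving out 411 alone also turned the median, to 0.02, whereas leaving out 409 alone gave -0.12. The marker lists moved too, with a median of 0.29 for Purkinje cells (-0.00045 without 409 and 411), 0.03 for granule cells (-0.19) and -0.50 for oligodendrocytes (0.16), and their part was not tested. The count of 2 was 1 without 411, 12 without 429, 8 without 420, 4 without 409 and 1 without 421 or any WT DMSO library. Over the fits that left out 1 library, 151 to 1201 of all genes passed, so these counts have no fixed background. The comparison shares its Het DMSO libraries with the previous one, so values of the 2 comparisons are tied through 409 and 411.

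In 2 members the groups did not overlap, both lower in Het Hit 2 (2.47%, against 1.03% of all genes, 0.392% lower and 0.635% higher). Ndufc2 had 32.8, 32.3, 35.2 and 34.3 CPM in Het Hit 2 (410, 421, 422 and 430), below the 35.97 to 54.6 of Het DMSO and overlapping with the 29.4 to 32.4 of WT DMSO. Its log2 fold change was -0.38 (SE 0.13, 95% interval -0.64 to -0.12, adjusted p = 0.898 by edgeR), and -0.13 (SE 0.07) without 409 and 411. Atp5e, the epsilon subunit of the F1 stalk, had 32.4, 26.3, 34.9 and 32.1 CPM in Het Hit 2 and 38.9, 43.0, 35.1 and 35.2 in Het DMSO. The nearest libraries differed by less than 1 CPM. The log2 fold change was -0.27 (SE 0.13), and -0.16 (SE 0.13) without 409 and 411, and in WT DMSO the level was 26.2 to 34.9 CPM.

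Other subunits that led the first comparison had lower means in Het Hit 2 than in Het DMSO, with libraries of the groups overlapping. Ndufv1 had 119, 109, 118 and 111 CPM in Het Hit 2, and its log2 fold change against Het DMSO was -0.42 (SE 0.20), or 0.01 (SE 0.06) without 409 and 411. Cox4i1 had 266, 220, 226 and 227 CPM, with -0.34 (SE 0.19) and 0.07 (SE 0.10). Library 410 was the highest of these 4. Uqcrc1 had 174, 162, 170 and 171 CPM, with -0.30 (SE 0.18) and 0.10 (SE 0.06). For all 3 the sign depended on libraries 409 and 411. Ndufs3, a core subunit of complex I with little spread, had -0.04 (95% interval -0.22 to 0.15).

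Het Hit 2 was also compared with WT DMSO, which leaves out the Het DMSO levels but still draws its error from all 12 libraries. Genotype is partly tied to sex in this comparison too. No member was called by edgeR, against 0.00516% of all genes, and none passed an unadjusted p of 0.05, against 1.71% of all genes (0.748% higher and 0.96% lower). DESeq2 also had 0 such members, and limma 8, while 170 to 2494 of all genes passed over the alternative fits, leaving out single libraries aside. The median log2 fold change was 0.08 over the members and 0.02 over all genes. It lay at 0.08 to 0.09 in each of the 5 complexes, and 71 of 81 members (87.7%) lay above 0, against 55.7% of all genes. In the same comparison the Purkinje marker median was -0.58 (-0.59 without 409 and 411), that of granule cells -0.26 (-0.27) and that of oligodendrocytes 0.26 (0.25). The astroglia median was -0.21, and these markers summed to 2815 to 3008 CPM in Het Hit 2, below all WT DMSO libraries. Without 410 the median was 0.03 with 60 above 0, and without 431 it was 0.05 with 61. The values were small, and 76 members lay within 0.2 of 0. The lowest 3 were the scarce tissue forms Cox7b2 (-0.41, SE 0.76), Cox6b2 (-0.38, SE 0.38) and Cox4i2 (-0.35, SE 0.34), each with an interval that included 0. With 409 and 411 left out of the fit, the standard errors were smaller, the median was 0.07 and 9 members (11.1%) had an unadjusted p under 0.05, all higher in Het Hit 2, against 9.5% of all genes and 3.93% in the higher direction. They were Uqcrc1, Atp5g1, Atp5a1, Atp5c1, Ndufa11, Ndufa9, Atp5b, Cox6c and Ndufa6.

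In 6 members the groups did not overlap, all higher in Het Hit 2 (7.41%, against 6.32% of all genes, 2.9% higher and 3.42% lower): Atp5g1, Atp5c1, Ndufa6, Atp5a1, Uqcrc1 and Ndufa9. Atp5g1 had 69.6, 66.3, 64.9 and 53.5 CPM in WT DMSO and 78.4, 74.3, 72.4 and 76.6 in Het Hit 2. Its log2 fold change was 0.25 (SE 0.13, adjusted p = 1.00 by edgeR), or 0.23 (SE 0.08, adjusted p = 0.327) without 409 and 411. Uqcrc1 had 174, 162, 170 and 171 CPM in Het Hit 2, above the 144 to 159 of WT DMSO, for 0.16 (SE 0.18) and 0.15 (SE 0.05). Atp5a1 had 606, 560, 581 and 583 CPM, above 498 to 541, for 0.17 (SE 0.16) and 0.15 (SE 0.05). Atp5c1 had 90.1, 79.0, 84.2 and 83.3 CPM, above 74.9 to 76.5, for 0.15 (SE 0.12) and 0.13 (SE 0.05). Library 410, with low neuronal and high oligodendrocyte marker sums, was the highest of the 4 in Atp5g1, Uqcrc1, Atp5a1 and Atp5c1. The part of cell content in these values was not tested.

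The 3 X-linked members are Ndufa1 and Ndufb11 of complex I and Cox7b. Libraries 425 and 426, both WT DMSO, had Xist at the level of females, and the other 10 did not. Ndufa1 had 15.6 and 13.7 CPM in those and 14.7 and 12.1 in the other WT DMSO libraries. Ndufb11 had 43.8 in both, and 48.5 and 41.9 in the others. Neither gene separated the sexes, and Cox7b, with 48.6 and 52.6 against 59.0 and 48.9, did not either. Since no Het library was female, sex differences within the knock-in groups could not be examined. With a term for female libraries, 5 members had an unadjusted p under 0.05 by edgeR for Het DMSO against WT DMSO, where 19 had it without the term. The median log2 fold change with the term was 0.18 over the members and 0.06 over all genes, and 65 members lay above 0. The share of all genes at that p with the term is not given here.

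The subunits encoded by mitochondrial DNA were set beside the nuclear members of the same complex. In 409 the mitochondrially encoded subunits of complex I summed to 140 CPM, against 4230 to 6598 CPM in the other 11 libraries, while the nuclear members summed to 1853, against 1481 to 2113. The ratio was 0.075 in 409 and 2.52 to 4.27 elsewhere. For complex III, mt-Cytb gave a ratio of 0.082, against 3.47 to 5.76. For complex IV, where nearly all counted reads came from mt-Co1, the ratio was 0.395, against 4.44 to 6.73. In 411 the complex III ratio, 3.47, lay below the 3.61 to 5.76 of the libraries other than 409, and its ratios of 2.56 for complex I and 5.04 for complex IV lay inside their range. Several mitochondrial genes were hardly counted in any library: mt-Atp8 had at most 1.36 CPM and mt-Nd3 at most 0.626 CPM, so no ratio is given for complex V. Over the 13 mitochondrial genes the median log2 fold change for Het DMSO against WT DMSO was -0.47, and -0.07 without 409 and 411.

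**Figure D5:**
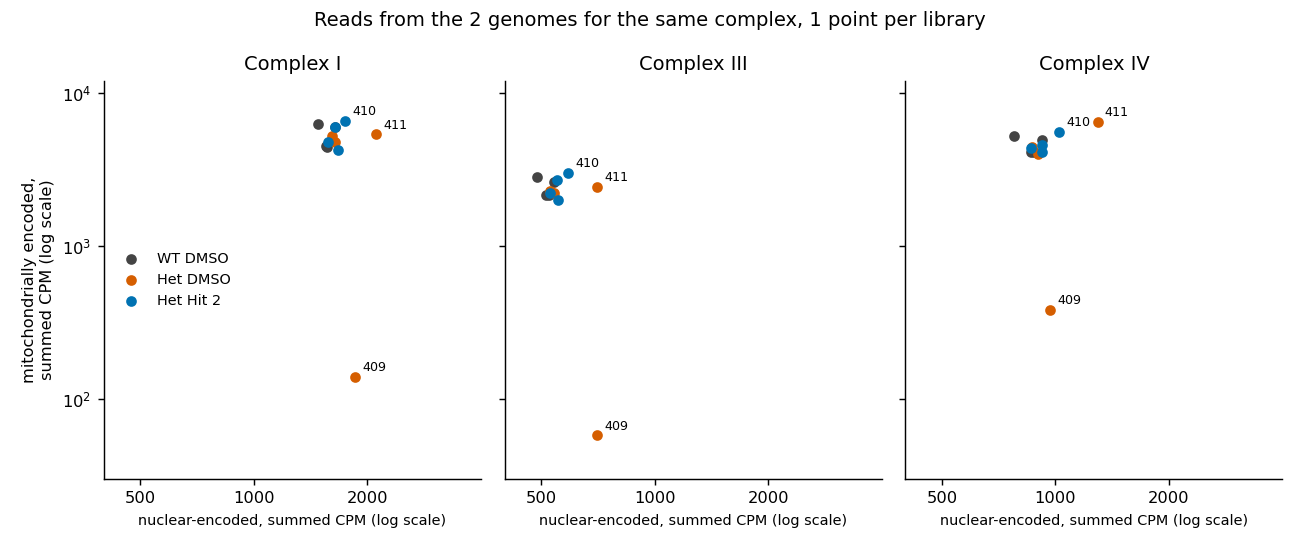
Summed CPM of the mitochondrially encoded subunits against summed CPM of the nuclear members of complexes I, III and IV, 1 point per library, both axes on a log scale. Library 409 lies far below all others on the mitochondrial axis, at 140 CPM for complex I, and within their range on the nuclear axis.

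Genes outside the symbol rule were read from fixed lists, none of whose members was called by edgeR in any comparison. Their counts at an unadjusted p under 0.05 stand against 4.77% of all genes higher and 2.34% lower for Het DMSO against WT DMSO. Of 47 assembly factors of the complexes 46 were tested; 5 had an unadjusted p under 0.05 for Het DMSO against WT DMSO, all higher, and the median was 0.13, or 0.02 without 409 and 411. The 14 enzymes of the tricarboxylic acid cycle, which supply NADH and succinate, had 0 at that level and a median of 0.19, or 0.03. Of 16 glycolysis genes 6 were higher and 1 lower, with a median of 0.34, or 0.00048. The lower one was Aldoc, the aldolase of astrocytes and of bands of Purkinje cells, with 1085 ± 201 CPM (SD, n = 4) in WT DMSO, 617 ± 50.4 in Het DMSO and 614 ± 68.2 in Het Hit 2. Aldoc is also 1 of the 10 astroglia markers. The other 9, a sum chosen after seeing the data, came to 2560 to 2773 CPM in WT DMSO, 1955 to 2467 in Het DMSO and 2247 to 2332 in Het Hit 2, and their part in the Aldoc values was not tested. The Aldoc log2 fold change was -0.81 (SE 0.16), and -0.83 (SE 0.18) without 409 and 411, for Het DMSO against WT DMSO. Among 17 transcriptional regulators of mitochondrial genes, 2 were lower, Gabpb1 (-0.44, SE 0.17) and Tfb2m (-0.37, SE 0.16), and the median was -0.06. With 409 and 411 left out these were -0.19 (SE 0.12), -0.24 (SE 0.17) and -0.06. Gabpb1 encodes a partner of the ETS factor GABPA. Ppargc1a had 57.6 ± 2.85 CPM in WT DMSO and 55.1 ± 17.3 in Het DMSO, Nrf1 52.2 ± 2.02 and 50.5 ± 13.5, and Esrra 51.3 ± 5.71 and 70.4 ± 32.3. In these 3 regulators the spread within Het DMSO was larger than the difference of the means. The TCA, glycolysis and assembly medians for Het Hit 2 against Het DMSO were -0.12, -0.20 and -0.08, and each was above 0 without 409 and 411 (0.03, 0.10 and 0.03).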

How the data were processed

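The authors deposited unnormalized read counts for each gene, a table for every library; STAR 2.7.10a and FastQC 0.11.9 and the mouse build GRCm39 are named in the submitters' processing notes, and the annotation release is not given in the sources used here. Libraries were directional and depleted of ribosomal RNA, made from 500 ng of RNA with 13 cycles and read as pairs of 100 bases, per the labels. Opposite-strand counts were used; reads on several places or in no gene stayed out, so members with processed pseudogenes may be understated. Symbols, lengths and coordinates came from GENCODE M21 (GRCm38), matching 55141 identifiers, with 260 unmatched; promoters came from RefSeq on GRCm38.p6. The builds differ from the authors'. Members, lists and tests were chosen with earlier results of these data known. edgeR 4.0.16 (R 4.3.3) kept 19378 genes by filterByExpr, used TMM factors and fitted all 12 libraries with 1 coefficient per group; tests were two-sided with Benjamini-Hochberg adjustment over all genes, standard errors came from the F statistic, and 95% intervals use the normal quantile, so they are slightly narrower than the test's own. Exact permutation tests ran over 70 assignments. CPM are on TMM-scaled sizes; RPKM used the exon union of the basic annotation. Named members were, by rule, the 3 with the smallest p in each comparison, the highest and lowest level of each complex, alternative forms of a subunit, catalytic and cofactor subunits, F1 subunits and X-linked genes (43 in all); others were chosen after their values were seen. Alternatives were DESeq2 1.42.0, limma 3.58.1 with quality weights, other scalings, filters and offsets, a sex term, unstranded counts and leaving out libraries. On simulated data for Het DMSO against WT DMSO (19102 genes), 35% of 2-fold and 90% of 4-fold changes were recovered. The labels number separate animals; libraries of a group differed by more than sampling noise. The values of 1 member are not reported here.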

Additional observations from a re-analysis of the deposited data

Results flagged for a closer look

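Within a group of 4 libraries, the farthest library was set against the other 3 by Dixon's test for each named member and each complex. Chance alone flags about 1 in 20 such groups. Of 147 checks 16 stood out, where 7.35 would arise by chance, and 9 of the 16 were in library 411, none in 409 and 7 in other libraries. The checks covered the members named by rule, which leave out Uqcrb, the lowest member of 409, with 7.61 CPM there and 27.6 to 29.8 in the other Het DMSO libraries. In 411 the median deviation was 0.40 over all members, 0.40 over complex I and 0.33 over complex V, while the other Het DMSO libraries lay near 0. The same library stood out for Atp5g3 with 143 CPM (others 100 to 101), Cox6b1 with 125 (73.8 to 80.6), Cox7a2l with 80.8 (42.8 to 45.9), Ndufb9 with 41.3 (24.5 to 27.2), Uqcrh with 90.2 (63.8 to 67.0) and Uqcrq with 54.9 (38.3 to 41.0).

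Library 410 of Het Hit 2 stood out for Cox4i1 with 266 CPM (others 220 to 227), Cox6b2 with 2.49 (1.19 to 1.31), Sdha with 362 (312 to 318) and Uqcrq with 49.3 (39.8 to 41.0). Single cases were Ndufa1 in 421, with 11.7 CPM (15.3 to 16.0), Sdhc in 422, with 67.2 (60.7 to 61.4), and Atp5c1 in 431 of WT DMSO, with 74.9 (76.4 to 76.5). The last of these differs from its group by less than 2 CPM.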

How the results depend on the processing

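No member was called at an adjusted p of 0.05 under any alternative run, and the smallest adjusted p of a named member was 0.143 in the comparison of the knock-in with wild type, 0.624 in that of the compound with its solvent, and 0.185 in that of treated knock-in with wild type. At an unadjusted p under 0.05 the members passing were 19, 2 and 0. Genes called over the whole table for Het DMSO against WT DMSO were 1, but 43 with DESeq2, 98 with limma and quality weights, 2 with an exonic length offset, 2 when scaled by total gene reads, 0 with only the 2 groups compared, 18 without 409 and 411, and 0 to 9 when a library was left out. For Het Hit 2 against WT DMSO, 1 gene was called, but 24 with DESeq2, 221 with limma, 3 with a GC offset, 0 with a length offset, 4 with no filter, 54 with only the 2 groups, 0 with a sex term, 2 with unstranded counts, 90 without 409 and 411, and 0 to 14 when a library was left out. The complex II median for Het DMSO against WT DMSO, 0.23, was 0.0299 with limma and 0.00081 without 409 and 411, and the complex III median, 0.14, was 0.29 with the length offset, which also raised the median of all members to 0.25, complex I to 0.26 and complex V to 0.28. For Het Hit 2 against Het DMSO the complex II median, -0.16, was 0.0239 with limma and 0.0675 without 409 and 411, and that of complex III, -0.05, was -0.20 with the length offset, under which all members were at -0.14, complex I at -0.12, complex IV at -0.18 and complex V at -0.10. The cause was not tested. The sign of a named member's fold change turned in 80, 114 and 28 of 1028 values (43 members over the alternatives) for the 3 comparisons in that order. Removing 409 and 411 and measuring levels on all exons were chosen as settings with the data or earlier results known. No paired analysis was possible because the animal numbers do not recur between groups. Low counts limit Cox7b2 and Cox4i2.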
